A study of Homo sapiens with 9 samples.

Results

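The distal end of the long arm of chromosome 19, from 52 Mb in hg19 to the last peak of the chromosome, which ended at position 59099049, was examined in DND-41. This line was established from a patient with T-cell acute lymphoblastic leukemia. The assay was CUT&RUN: a nuclease is guided by an antibody to a protein or histone mark in permeable cells, and the fragments cut there are sequenced. Every peak whose midpoint lay in this interval was taken from 5 peak lists, which gave 979 of the 183634 peaks in all lists. They were 179 of 12834 H3K4me3 peaks, 45 of 7445 BRG1 peaks, 110 of 19893 RUNX1 peaks, 405 of 90495 H3K27ac peaks after the vehicle DMSO and 240 of 52967 H3K27ac peaks after 100 nM ACBI-1. BRG1, RUNX1 and H3K4me3 were profiled in DND-41 cells with no treatment label. ACBI-1 causes the breakdown of the SWI/SNF ATPases SMARCA2 and SMARCA4 and of PBRM1, another SWI/SNF subunit. Its library is called ACBI here. There was 1 library for each target and condition. Differences between lists therefore have no replicates behind them, and p-values are absent throughout. Depth and signal height are not known from the deposited positions.

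H3K4me3 marks active promoters and H3K27ac marks active promoters and enhancers. BRG1 (SMARCA4) is an ATPase of the SWI/SNF complexes, which move nucleosomes, and RUNX1 is a sequence-specific transcription factor needed in the T-cell lineage. KRAB zinc finger proteins form a large family of DNA-binding repressors. Many of them bind transposable elements and recruit the corepressor TRIM28, and their genes lie in tandem clusters, the densest of them on chromosome 19.

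No annotation of hg19 was used here, so no peak was assigned to a gene. The make-up of this chromosome end is therefore given by gene order alone, from the RefSeq gene table of GRCh38.p14. From FPR1, a formyl peptide receptor gene placed near the start of the interval from general knowledge, to the last gene of 19q, MZF1, the table lists 232 protein-coding genes. By symbol, 111 of them are zinc finger genes, out of 569 such genes in the whole table. A further 19 are LILR, KIR or LAIR leukocyte receptor genes, 9 are NLRP genes, 3 are VN1R genes, 0 are SIGLEC genes and 90 are others. Any genes between the start of the interval and FPR1 are left out of these counts. The 0 for SIGLEC genes therefore holds from FPR1 on only, and not for the whole interval. The zinc finger genes form a run on each side of a mixed middle. From FPR1 up to NLRP12 they make up 40 of 51 genes, from NLRP12 up to ZNF582 12 of 103, and from ZNF582 to MZF1 59 of 78. TRIM28 itself lies in the last of these runs. The name zinc finger cluster thus describes the ends of this gene stretch better than its middle.

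The core RUNX word TGTGGT was searched on both strands (as TGTGGT or ACCACA) in the RefSeq promoters of this gene stretch, each 300 bases long. It was found in 19 of 118 promoters of zinc finger genes (16.1%, exact Clopper-Pearson 95% interval 9.98 to 23.997) and in 21 of 126 promoters of the other genes (16.7%, 10.6 to 24.3). Of all promoters of protein-coding genes in the table, 11.3% (10.9 to 11.7) held it, and of all promoters 13.1%. Promoters were available for 94 of the 111 zinc finger genes. Their promoters held a median of 23 CpG, close to the 21 of all protein-coding genes, while the other genes of the stretch had a lower median of 12.5. The first promoter with the word in gene order from each zinc finger run is printed below, to show what such a promoter looks like, as the 250 bases before the start site on the gene's own strand (GRCh38.p14). Capitals mark the word. No RUNX1 peak was matched to either gene.
ZNF880 (plus strand): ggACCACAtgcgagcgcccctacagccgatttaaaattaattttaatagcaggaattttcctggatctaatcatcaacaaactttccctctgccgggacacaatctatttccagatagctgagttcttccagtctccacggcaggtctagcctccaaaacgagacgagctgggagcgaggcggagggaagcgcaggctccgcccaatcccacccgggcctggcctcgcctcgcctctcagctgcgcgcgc
ZNF582 (minus strand): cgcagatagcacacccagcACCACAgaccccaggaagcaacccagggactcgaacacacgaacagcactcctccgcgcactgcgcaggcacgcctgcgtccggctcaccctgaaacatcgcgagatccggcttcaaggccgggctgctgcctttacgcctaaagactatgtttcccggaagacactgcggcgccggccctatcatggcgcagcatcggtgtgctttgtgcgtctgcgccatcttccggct
The word ended 242 bases before the start site in ZNF880 and 225 bases before it in ZNF582. A match describes the letters only and is not a measured binding site.

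H3K4me3 peaks were numerous here and of ordinary width. Chromosome 19 was divided into 9 consecutive windows of 7.1 Mb counted back from the q end, the last of which, at the p end, was only 2.3 Mb long. The 179 peaks of the first window, the interval itself, were the most in any of the 9, ahead of 173 in the window from 9.4 to 16.5 Mb, although the short window was denser, at 32.2 peaks per Mb against 25.2. Their median width was 1329 bp (quartiles 856 and 1707 bp), against 1268 bp (756.5 and 1745 bp) for the 835 peaks of the rest of chromosome 19. Neighbouring peaks were a median of 21221 bp apart from midpoint to midpoint, against 28028 bp on the rest of the chromosome. The peaks were not spread evenly. The widest stretch without H3K4me3 ran from 57107756 to 57683636, while 43 peaks lay between 58 and 59 Mb. Of the 179 peaks, 47 lay within 1 kb of another H3K4me3 peak, and their median width was 589 bp, while that of the other 132 was 1451 bp. Whether such neighbours are separate promoters or pieces of 1 marked stretch was not tested, so the number of peaks is not a number of promoters.

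**Figure D1:**
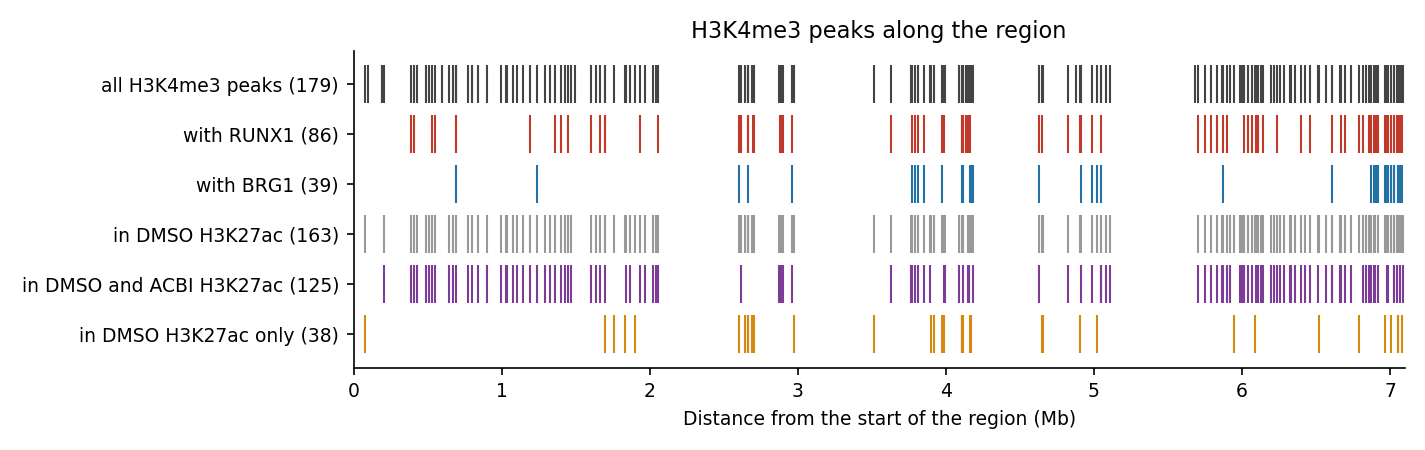
H3K4me3 peaks along the interval, each drawn as a tick at its midpoint, by distance from 52 Mb (x axis, Mb). Rows show all 179 peaks, the 86 with a RUNX1 peak, the 39 with a BRG1 peak, the 163 in DMSO H3K27ac, and these split into the 125 also in ACBI H3K27ac and the 38 that were not. BRG1 ticks are sparse in the first 2 Mb and crowd at the right-hand end.

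The widest H3K4me3 peak measured 4253 bp (56151839 to 56156091). It held neither factor and was covered over 4033 bp by H3K27ac in DMSO and 3831 bp in ACBI. The second measured 3874 bp (54877701 to 54881574) and also held neither factor. It was 1 of 6 H3K4me3 peaks inside the widest H3K27ac peak of the interval, described further on. The third measured 3495 bp (55767945 to 55771439) and held 593 bp of BRG1 peak and 702 bp of RUNX1 peak. Only these 3 reached 3 kb. The next were at 59068642 to 59071575, 54958893 to 54961780, 54617398 to 54620054, 54885042 to 54887682, 55765128 to 55767708, 58897301 to 58899849 and 55627357 to 55629810, with widths from 2934 down to 2454 bp. Of these 10 widest peaks 7 held RUNX1 and 4 held BRG1, and all 10 overlapped H3K27ac in both conditions. Of the 10, 8 lay between 54 and 57 Mb.

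RUNX1 and BRG1 were found at a smaller share of these H3K4me3 peaks than on the rest of the chromosome. RUNX1 peaks overlapped 86 of the 179 H3K4me3 peaks by at least 1 bp (48.04%, 40.5 to 55.6), against 538 of 835 on the rest of chromosome 19 (64.4%, 61.1 to 67.7) and 58.8% of H3K4me3 peaks on all chromosomes. The difference from the rest of the chromosome was -16.4 percentage points (Newcombe 95% interval -24.3 to -8.39). BRG1 overlapped 39 of 179 (21.8%, 16.0 to 28.6), against 278 of 835 (33.3%, 30.1 to 36.6) and 34.5% on all chromosomes, a difference of -11.5 points (-17.8 to -4.20). These intervals cover counting error over peaks only and treat neighbouring peaks as independent, which they are not. Both shares were the lowest of the 9 windows. RUNX1 ranged from 50% to 74.3% in the other 8, where the lowest value came from 16 peaks, and BRG1 from 23.7% to 58.11%. For each factor the 95% interval of the next lowest window overlapped that of the first.

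Among the 179 promoter peaks, 35 held both factors, 51 held RUNX1 alone, 4 held BRG1 alone and 89 held neither. Peaks with neither factor made up 49.7% (42.2 to 57.3), against 31.1% (28.01 to 34.4) on the rest of the chromosome. Their median width was 1226 bp, against 1184 bp with both factors and 1455 bp with RUNX1 alone. On the rest of chromosome 19 the order of these medians was different, at 1002, 1466 and 1307 bp. The lower quartile in the interval was 696 bp with neither factor, 856 bp with both and 1080.5 bp with RUNX1 alone. The part of width in the share with neither factor was not tested. Where RUNX1 was present, BRG1 accompanied it at 40.7% of peaks (30.2 to 51.8), close to the 44.8% (40.5 to 49.1) of the rest of the chromosome. The difference was -4.10 points (-14.7 to 7.25). Where RUNX1 was absent, BRG1 was found at 4 of 93 peaks (4.30%, 1.18 to 10.7) against 37 of 297 (12.5%, 8.93 to 16.8).

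**Figure D2:**
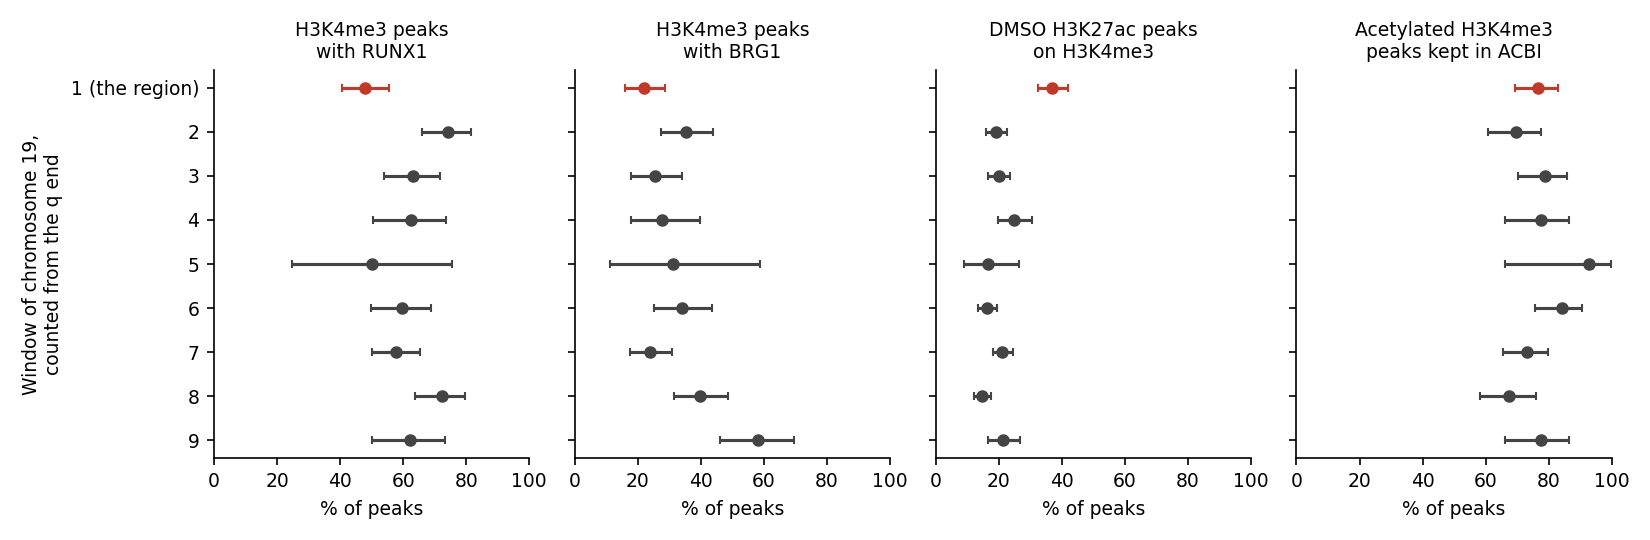
Shares of peaks (x axis, %) in 9 windows of chromosome 19 counted from the q end (y axis), window 1 being the interval from 52 Mb on, with exact 95% binomial intervals as bars. Window 1 has the lowest share of H3K4me3 peaks with RUNX1 (48.04%) and with BRG1 (21.8%) and the highest share of DMSO H3K27ac peaks on H3K4me3 (37.04%), while its share kept in ACBI (76.7%) lies among the others.

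The 10 widest of the 35 promoter peaks with both factors were led by 4 of the peaks named above, at 55767945, 59068642, 54958893 and 58897301. At 54958893 to 54961780 a RUNX1 peak of 1055 bp and a BRG1 overlap of 205 bp lay in a 2888 bp H3K4me3 peak. The others started at 58918958, 56988018, 59029650, 59055854, 56631409 and 56914654. H3K27ac in ACBI overlapped 9 of these 10. The exception was the peak at 59055854 to 59057794, of which DMSO H3K27ac covered 204 of 1941 bp and ACBI H3K27ac none.

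The factors were distributed unevenly along the interval. In bins of 1 Mb from 52 Mb on, RUNX1 was found at 6 of 24, 9 of 27, 12 of 21, 7 of 14, 13 of 23, 7 of 17 and 23 of 43 H3K4me3 peaks, and at 9 of 10 in the last 0.1 Mb. BRG1 was found at 2, 1, 3, 5, 8, 3, 9 and 8 of the same peaks. The first 2 Mb thus had RUNX1 at 15 of 51 peaks (29.4%, 17.5 to 43.8) and BRG1 at 3 of 51, although the H3K4me3 peaks there had a median width of 1335 bp. At the opposite end, the 19 H3K4me3 peaks from 58873175 to 59087586 held BRG1 in 16 cases (84.2%, 60.4 to 96.6) and RUNX1 in 17. The 51 peaks before them, from 57 Mb on, held BRG1 in 4 cases (7.84%, 2.18 to 18.9) and RUNX1 in 22. These last 19 peaks span 214.4 kb and hold 16 of the 39 promoter peaks with BRG1. The stretches in this paragraph were chosen after the values were seen, so they are descriptions without a test.

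**Figure D3:**
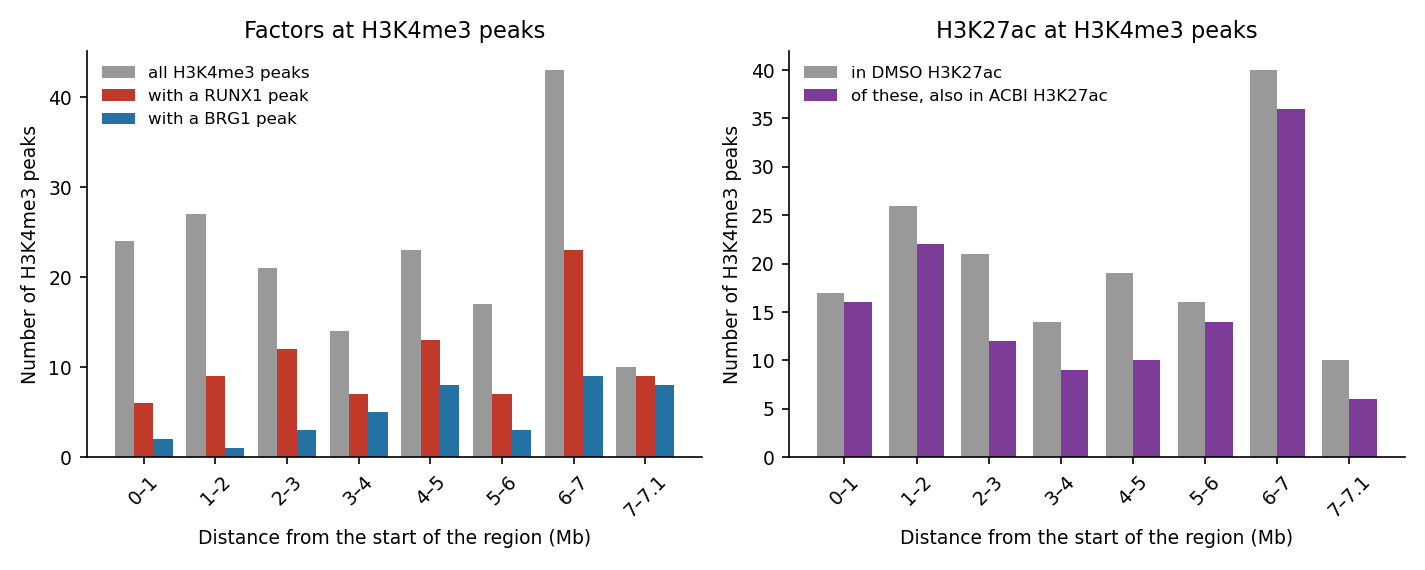
Number of H3K4me3 peaks (y axis) per 1 Mb bin of distance from 52 Mb (x axis, Mb, last bin 0.1 Mb). The left panel shows all peaks and those with RUNX1 or BRG1, from 6 of 24 with RUNX1 in the first bin to 9 of 10 in the last, and the right panel the peaks in DMSO H3K27ac and those also in ACBI H3K27ac, 12 of 21, 9 of 14 and 10 of 19 in the bins at 2 to 5 Mb.

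The factor peaks themselves sat mostly at promoters. Of the 110 RUNX1 peaks, 93 overlapped H3K4me3 (84.5%, 76.4 to 90.7), against 64.3% (61.1 to 67.4) of the 918 on the rest of the chromosome, a difference of 20.3 points (11.8 to 26.7). The other 8 windows ranged from 47.6% to 75.2%. Of the 45 BRG1 peaks, 38 were on H3K4me3 (84.4%, 70.5 to 93.5), the same share as the 84.4% of the rest of the chromosome, and 39 were on RUNX1 (86.7%, 73.2 to 94.95). The midpoints of the RUNX1 peaks on H3K4me3 lay a median of 298 bp from the midpoint of the promoter peak, and those of BRG1 284 bp, against 359 and 431 bp on the rest of the chromosome. Overlapping BRG1 and RUNX1 midpoints were a median of 61 bp apart, as on the rest of the chromosome. Of the 17 RUNX1 peaks off H3K4me3, 9 lay in DMSO H3K27ac and 8 in neither mark. Of the 7 BRG1 peaks off H3K4me3, 5 were also outside DMSO H3K27ac.

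The widest RUNX1 peak of the interval measured 1606 bp (54693480 to 54695085). It held 243 bp of BRG1 peak and 252 bp of H3K4me3 peak but no H3K27ac in either condition. The next were at 54959643 to 54960697, 59030556 to 59031600, 59084094 to 59085122 and 54883531 to 54884551, of 1055 to 1021 bp, and all of these lay on H3K4me3 and DMSO H3K27ac. The widest BRG1 peak measured 616 bp (55850633 to 55851248), was covered fully by RUNX1 and had no H3K27ac in either condition. The following BRG1 peaks were at 58987132 to 58987729, 55770241 to 55770833, 55919200 to 55919773 and 59055434 to 59055948, each covered fully by RUNX1. The peak at 55919200 lay off H3K4me3 and was covered by H3K27ac in DMSO but not in ACBI.

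A larger share of the DMSO H3K27ac peaks lay on promoters in this interval than on the rest of the chromosome, although most lay off them. Of the 405 DMSO peaks, 150 overlapped H3K4me3 (37.04%, 32.3 to 41.9), against 699 of 3698 on the rest of the chromosome (18.9%, 17.7 to 20.2) and 14.6% to 24.9% in the other 8 windows. The difference was 18.1 points (13.4 to 23.1). Conversely, 163 of the 179 H3K4me3 peaks overlapped DMSO H3K27ac (91.1%, 85.9 to 94.8), against 92.3% (90.3 to 94.05) on the rest of the chromosome and 92.8% on all chromosomes. Peaks away from promoters were narrow. The 255 DMSO peaks off H3K4me3 had a median width of 527 bp (quartiles 303.5 and 1034.5 bp), against 809 bp for the 2999 such peaks of the rest of chromosome 19. RUNX1 lay in 6 of these 255 peaks, against 155 of the 2999 and 5964 of 76643 on the other chromosomes. The part of peak width in these counts was not tested.

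On promoters the H3K27ac peaks were also somewhat narrower than those pooled from the rest of the chromosome. The 150 DMSO peaks on H3K4me3 had a median width of 1520.5 bp (quartiles 887 and 2064 bp), against 1721 bp (1042 and 2779 bp) for the 699 on the rest of the chromosome. The upper quartile differed most. The median was not the lowest of the 9 windows: in the other 8 it ran from 1479 bp (37.8 to 44.9 Mb) to 3014 bp. Its 95% interval, 1194 to 1625 bp, included the 1618 bp of the rest of 19q (from 29 Mb). DMSO H3K27ac covered 77.6% of the H3K4me3 length, against 83.04% on the rest of the chromosome, and covered the whole of 46 of the 179 H3K4me3 peaks (25.7%, 19.5 to 32.8) against 38.3% (35.01 to 41.7).

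In the DMSO list 6 peaks reached 5 kb. The widest measured 22160 bp (54870546 to 54892705), the only one of 10 kb or more, and held 6 H3K4me3 peaks with 11213 bp in sum, 4 RUNX1 peaks and no BRG1 peak. It was called almost alike in ACBI, at 22323 bp (54870354 to 54892676). The second, 7592 bp (55764332 to 55771923), held 2 H3K4me3 peaks with both factors in one of them and lay in a 9900 bp ACBI peak (55761993 to 55771892). The third and the fourth were different. A peak of 7118 bp (56653073 to 56660190) and one of 6779 bp (56662224 to 56669002) held no factor peak, and ACBI H3K27ac covered 355 and 1669 bp of them. The fifth measured 6307 bp (58986161 to 58992467) and held both factors, with 4022 bp covered in ACBI. In the ACBI list the next widest were 6048 bp (54897111 to 54903158), 5190 bp (56627968 to 56633157) and 3831 bp (56151971 to 56155801), each on H3K4me3.

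The second question was what remained of promoter H3K27ac after the SWI/SNF degrader. Of the 163 H3K4me3 peaks in DMSO H3K27ac, 125 still overlapped an H3K27ac peak in ACBI (76.7%, 69.4 to 82.9) and 38 did not. On all chromosomes 84.0% of such peaks were kept, and on the rest of chromosome 19 it was 580 of 771 (75.2%, 72.02 to 78.2). The difference from the rest of the chromosome was 1.46 points (-6.18 to 8.10), and that from the other chromosomes -8.03 points (-15.1 to -2.16). A promoter peak counted as not kept only lacks a called peak in ACBI, and the mark may still be present below the caller's threshold. By factor, 41 of 49 peaks with RUNX1 alone were kept (83.7%, 70.3 to 92.7), 59 of 78 with neither (75.6%, 64.6 to 84.7), 23 of 32 with both (71.9%, 53.3 to 86.3) and 2 of 4 with BRG1 alone. The intervals of these classes overlap. On the rest of the chromosome the shares were 81.9%, 72.4%, 69.7% and 75.8%. The other chromosomes had 89.3%, 79.3%, 86.3% and 82.97%, and there peaks with both factors were kept more often than peaks with neither. The peaks with both factors differed from those of the other chromosomes by -14.4 points (-31.7 to -1.77). From those of the rest of chromosome 19 they differed by 2.14 points (-16.0 to 16.2). H3K4me3 peaks with both factors had a median width of 1184 bp here and 1828 bp on the other chromosomes. The part of width in the difference from the other chromosomes was not tested.

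Retention differed along the interval. Per 1 Mb bin from 52 Mb on, 16 of 17, 22 of 26, 12 of 21, 9 of 14, 10 of 19, 14 of 16 and 36 of 40 acetylated promoter peaks were kept, and 6 of 10 in the last 0.1 Mb. From 52 to 54 Mb this was 38 of 43 (88.4%, 74.9 to 96.1) and from 57 to 59 Mb 50 of 56 (89.3%, 78.1 to 95.97), while from 54 to 57 Mb it was 31 of 54 (57.4%, 43.2 to 70.8). The H3K4me3 peaks of the middle stretch were narrower, with a median of 1162 bp against 1335 and 1396.5 bp. Among peaks of 1 kb or wider, the shares kept were 37 of 40, 27 of 36 (75%, 57.8 to 87.9) and 41 of 44 in the same order, and among narrower peaks 1 of 3, 4 of 18 and 9 of 12. Peaks with RUNX1 were kept in 13 of 14, 19 of 29 and 27 of 29 cases, and peaks without it in 25 of 29, 12 of 25 and 23 of 27. The middle was thus lower among wide peaks, with RUNX1 and without it, while 3 narrow peaks from 52 to 54 Mb are too few to compare. Across the whole interval, H3K4me3 peaks within 1 kb of another were kept in 21 of 36 cases (58.3%), and the others in 104 of 127 (81.9%). In the middle stretch, 6 kept peaks lay in the single 22160 bp H3K27ac peak, so these counts are not of separate promoters. The stretches of this paragraph were chosen after the bins were seen, so the values are a description. The part of width or of neighbouring peaks in them was not tested.

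Of the 38 promoter peaks not kept, the widest measured 2452 bp (56166407 to 56168858), held 150 bp of BRG1 peak and no RUNX1, and had 1403 bp of DMSO H3K27ac. The second was 2289 bp (55916890 to 55919178), held neither factor and was overlapped by 2 DMSO peaks. The third was 2188 bp (54704108 to 54706295) with 741 bp of RUNX1 peak. The fourth, 2111 bp (58789316 to 58791426), held 761 bp of RUNX1 peak and had 1763 bp of DMSO H3K27ac. The others started at 57946001, 59055854, 55897275, 59009745, 53757327 and 54641358. Of these 10, 5 had less than 1 kb of DMSO H3K27ac on them. The 16 H3K4me3 peaks without DMSO H3K27ac were mostly narrow, the widest at 52597647 to 52599206 (1560 bp) with no factor peak. The following 4 measured 700 to 531 bp (57683636 to 57684335, 52193471 to 52194061, 52097233 to 52097799 and 56879460 to 56879990). Of the 16, 5 held RUNX1 and 1, that at 52193471, overlapped H3K27ac in ACBI.

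Where H3K27ac was called in both conditions, most peaks shrank in ACBI. Counting only DMSO peaks that met a single ACBI peak and the reverse, 107 pairs lay on H3K4me3. In these the DMSO peak had a median of 1575 bp, the ACBI peak one of 990 bp, and 84 pairs were narrower after the degrader (78.5%, 69.5 to 85.9). This share was 83.4% (79.7 to 86.8) on the rest of the chromosome and 80.2% on the other chromosomes. Over the 169 pairs of both kinds this share was 71.01% (63.5 to 77.7), against 74.5% of pairs on all chromosomes. The ACBI peak was under 50% of the DMSO width in 50 of the 169 (29.6%), against 32.7% on all chromosomes. Both shares lie near the background. Of the 62 pairs off H3K4me3, 36 were narrower (58.06%, 44.8 to 70.5) and 26 wider in ACBI. Such pairs were narrower in 74.2% (71.2 to 77.03) of cases on the rest of the chromosome and 72.4% on the other chromosomes. The strongest narrowing was at the 7118 bp peak named above, with 355 bp in ACBI. The strongest widening was off H3K4me3, from 175 bp (58344296 to 58344470) to 1452 bp.

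**Figure D4:**
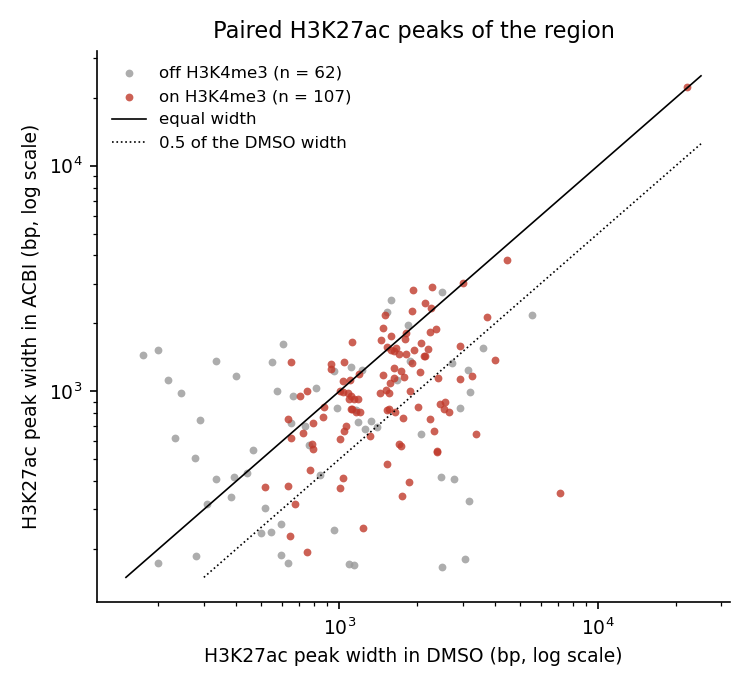
Widths of 169 pairs of 1 DMSO and 1 ACBI H3K27ac peak in DMSO (x axis) and ACBI (y axis), in bp on log scales. Of the 107 pairs on H3K4me3, 84 lie below the line of equal width, and the pair at the upper right is the 22160 bp peak.

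In covered length, ACBI H3K27ac came to 270.3 kb against 487.8 kb in DMSO, a ratio of 0.554 from peaks of 1126.3 and 1204.4 bp mean width. The ratio was 0.527 on the rest of the chromosome and 0.558 on the other chromosomes. It differed by promoter status. Peaks on H3K4me3 had a ratio of 0.670 (178.2 against 265.9 kb), and peaks off it 0.415 (92.2 against 221.9 kb). On the rest of chromosome 19 the corresponding ratios were 0.504 and 0.536, so the order was the opposite there, and on the other chromosomes they were 0.700 and 0.516. Among ACBI peaks, 118 of 240 were on H3K4me3 (49.2%, 42.7 to 55.7), against 21.9% (20.3 to 23.5) on the rest of the chromosome. The share was already higher in DMSO, at 37.04% against 18.9%.

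Lost peaks are those of the DMSO list without any overlap in ACBI, and gained peaks are those of the ACBI list without any in DMSO. In the interval 208 of 405 DMSO peaks were lost (51.4%, 46.4 to 56.3), against 49.4% (47.7 to 50.98) on the rest of the chromosome. The other 197 peaks (48.6%) overlapped an ACBI peak, against 40.9% of DMSO peaks on all chromosomes. On H3K4me3, 32 of 150 were lost (21.3%, 15.1 to 28.8), beside 21.7% (18.7 to 24.99) on the rest of the chromosome and 13.9% on the other chromosomes. The difference from the other chromosomes was 7.47 points (1.63 to 14.7). Off H3K4me3, 176 of 255 were lost (69.02%, 62.95 to 74.6) against 55.8% (53.99 to 57.6), a difference of 13.2 points (7.05 to 18.9). On the other chromosomes the share was 65.4%, and the difference from them was 3.65 points (-2.29 to 9.01), so the rest of chromosome 19 was the lower of these references. In the other 8 windows of chromosome 19 the share ranged from 43.1% to 69.7% (30.7 to 37.8 Mb). The interval was thus not the highest. Width moves with the difference from the rest of chromosome 19, since the peaks off H3K4me3 had a median of 527 bp here and 809 bp there. Among all DMSO peaks, on and off H3K4me3, loss falls steeply with width. Peaks off H3K4me3 were not binned by width on their own, so the part of width in their difference was not tested. In the narrowest of 10 width bins of all 405 DMSO peaks 31 of 35 were lost, and in the widest 1 of 24. The shares in each width bin lay close to those of the rest of the chromosome, apart from 31.3% (18.7 to 46.3) against 47.1% (42.3 to 52.04) for peaks of 978 to 1335 bp and 52.6% (35.8 to 69.02) against 68.1% (62.5 to 73.3) for those of 580 to 741 bp, with overlapping intervals in both bins.

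**Figure D5:**
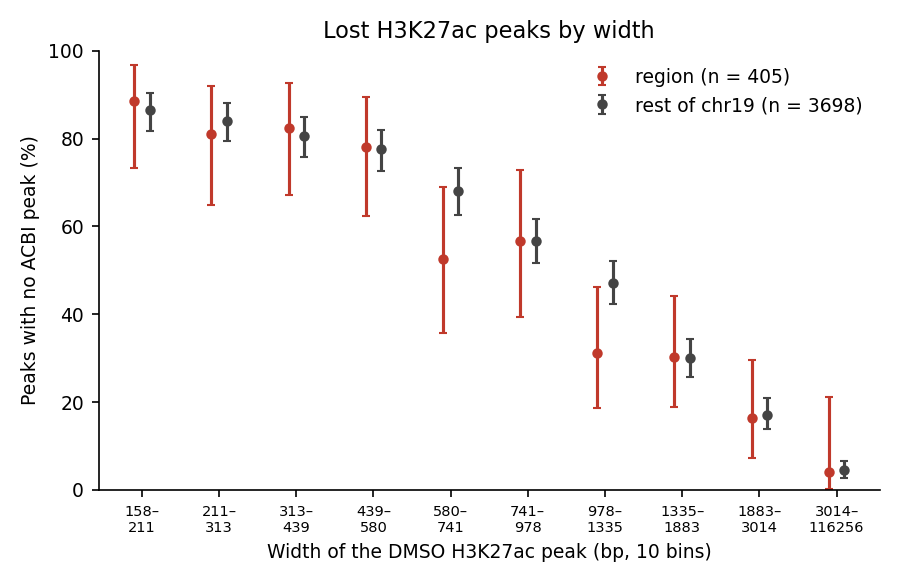
Share of DMSO H3K27ac peaks with no overlapping ACBI peak (y axis, %) in 10 bins of peak width (x axis, bp), for the interval (405 peaks) and the rest of chromosome 19 (3698 peaks), with exact 95% binomial intervals. Both fall with width, from 88.6% and 86.5% in the narrowest bin to 4.17% and 4.46% in the widest.

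The widest lost peak measured 3637 bp (54655054 to 54658690) and held no factor or H3K4me3 peak, and an ACBI peak lay 974 bp from it. The next 3 were of the same kind, at 56122918 to 56125559, 56195838 to 56198322 and 52710889 to 52713250. The fifth lay on H3K4me3. It was a peak of 2155 bp (54662512 to 54664666) with 2 H3K4me3 peaks, 279 bp of BRG1 and 596 bp of RUNX1, 7505 bp from the nearest ACBI peak. Of the 240 ACBI peaks 38 were gained (15.8%, 11.5 to 21.1), against 14.9% (13.6 to 16.3) on the rest of the chromosome and 21.4% on all chromosomes, and 37 of them lay off H3K4me3. The widest gained peak measured 2004 bp (52729107 to 52731110) and lay 111 bp from a DMSO peak. The other 4 of the 5 widest measured 1307 to 774 bp (55754705 to 55756011, 56192642 to 56193714, 53124249 to 53125307 and 58334388 to 58335161), and none of the 5 held a factor or H3K4me3 peak.

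The last comparison was of H3K27ac at the factor peaks. Of the 96 RUNX1 peaks in DMSO H3K27ac, 69 still overlapped H3K27ac in ACBI (71.9%, 61.8 to 80.6), against 65.6% (62.1 to 68.99) on the rest of the chromosome and 76.6% on the other chromosomes. Neither difference exceeded its counting error, at 6.26 points (-3.98 to 14.99) and -4.77 points (-14.5 to 3.28). Of the 36 BRG1 peaks in DMSO H3K27ac, 15 did (41.7%, 25.5 to 59.2), against 53.5% (47.4 to 59.5) on the rest of the chromosome, a difference of -11.8 points (-27.4 to 5.39). On the other chromosomes 5061 of 6533 such BRG1 peaks did (77.5%), and the difference of the interval from them was -35.8 points (-50.4 to -19.6). The rest of chromosome 19 was thus also below the other chromosomes. These intervals treat neighbouring peaks as independent, which they are not.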

How the data were processed

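The deposited lists give chromosome, start, end and peak name for each peak, with no score, fold, p-value or count, so the values used are positions in bp. Per the submitters' processing notes, positions are in hg19 and peaks came from MACS2 and SEACR. MACS2 is named for RUNX1, and broad calling at q below 0.01 for H3K27ac in both conditions, per the file headers. Which aligner, other thresholds, controls or pooling were used is not given in the sources used here. In addition, 4 IgG or input libraries were not analysed here.

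Members were chosen by midpoint, from 52 Mb to the end of chromosome 19, and coordinates count from 1. The members, the gene lists and the comparisons were chosen with earlier results of these data known. An overlap of 1 bp or more counted as shared. These calls were checked against bedtools 2.31.1 for 20 ordered pairs of lists, with 0 peaks differing. Width standardisation was tested on simulated data. Sites were named by width rank: the 10 widest H3K4me3 peaks, those with both factors and those not kept, and the 5 widest of the other kinds. Python 3.11.15, numpy 2.4.6, pandas 2.3.3, scipy 1.17.1 and matplotlib 3.10.9 were used. Since calling settings differ, peak numbers cannot be compared between targets. A shallower ACBI library would also give fewer and narrower peaks, and depth is unknown.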

Additional observations from a re-analysis of the deposited data

How the results depend on the processing

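Of 52 values recomputed under alternative settings, 33 stayed near the reported value, 18 moved away from it and 1, the difference in covered-length ratio from other chromosomes, was counted apart for its change of sign. Shares, medians and their differences were judged by the reported 95% interval, within which a sign can also turn. The ratio has no interval, so any change in it at 3 digits was counted. Requiring 50% of the peak to be covered gave 10.1% (RUNX1) and 0.559% (BRG1) of H3K4me3 peaks, as factor peaks are far narrower than promoter peaks, and 82.7% in DMSO H3K27ac, 62.8% kept in ACBI, 69.1% of DMSO peaks lost and 26.3% of ACBI peaks gained. Accepting a peak within 1 kb gave 56.98% (RUNX1), 30.2% (BRG1), 40.7% lost and 6.67% gained. Merging H3K27ac peaks within 1 kb gave 46.2% lost. The ratio of covered length was 0.531 with 1 Mb left off each end, 0.559 with peaks of at least 500 bp and 0.525 with merged peaks. It exceeded that of the rest of chromosome 19 by 0.0275 and that of the rest of 19q (from 29 Mb) by 0.0540, while the difference from all other chromosomes was -0.00358. Against all other chromosomes, the differences were -8.03 points (kept), -8.20 points (lost) and -5.91 points (gained), against 1.46, 2.01 and 0.922 points beside the rest of chromosome 19. Beside the rest of 19q the difference in lost peaks was -1.40 points. At like widths, the differences from the rest of chromosome 19 were -18.4 points for RUNX1, -12.95 points for BRG1 and -3.03 points for kept peaks (5 width bins, added after seeing the data), and -3.05 points for lost peaks (10 bins). The differences in kept and lost peaks thus turn their sign with the reference or with width, and those in gained peaks and in covered length with the reference. The cause of these shifts was not tested. No paired analysis was possible because each H3K27ac condition had 1 library, although both carry the number 2 in their labels. Unknown depth limits every count of lost or gained peaks.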
